A study of Homo sapiens with 6 samples.

Results

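The genes described here are the G1 cyclins and the kinases they activate: the 3 D cyclins (CCND1, CCND2 and CCND3), the 2 E cyclins (CCNE1 and CCNE2), their catalytic partners CDK4, CDK6 and CDK2, and CDC25A, a phosphatase that activates CDK2. They were chosen by name, as genes whose products carry a cell from growth-factor sensing into S phase. They are 9 of 58523 genes with a matched transcript, and their 85 transcripts are among 244939 listed in each library. RNA was sequenced from 6 independent cultures of the established human melanoma line A375, of which 3 were left untreated (control replicates 1 to 3) and 3 received hMGL for 24 h (treated replicates 4 to 6). hMGL is a human enzyme engineered to degrade methionine. All 6 cultures were of the same line, in the same serum-supplemented medium, and the dose of hMGL was not given in the sources used here. Treated and control cultures were compared to find how expression of these genes differs after exposure to the enzyme.

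D cyclins are made in response to growth signals, bind CDK4 or CDK6, and start the phosphorylation of the retinoblastoma protein that frees E2F transcription factors. E2F factors in turn activate genes needed for S phase, the E cyclins and CDC25A among them, and cyclin E bound to CDK2 completes the phosphorylation. In melanoma the BRAF and MAPK pathway is a known driver of cyclin D1, and CDK4 and CDK6 are drug targets.

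Promoter sequences of the RefSeq set, build GRCh38.p14, were found for 5 of the 9 genes, CCND3, CCNE1, CDC25A, CDK4 and CDK6, with 8 start sites in all. Each runs from 250 bases before the start site, 300 bases in total. They were searched on both strands for E2F-type words (TTTCGCGC, TTTGGCGC, TTTCCCGC, TTTGCCGC), the cyclic AMP response element (TGACGTCA) and the AP-1 word (TGACTCA). None of these words contains another. CDC25A is shown because it alone of the 8 held a match, an E2F-type word in capitals that begins at position -44 from the start site on the gene's own strand. E2F-type words were found in 3.31% of all 35116 promoters in the set, the cyclic AMP word in 1.85% and the AP-1 word in 4.95%. CCND3 and CDK6 are each shown at 2 start sites, because their isoforms from those starts are compared below; in these 4 sequences the capital is the base of the start site. All 5 are on the minus strand and are written 5′ to 3′ along the gene, at chr3:48188368-48188667 (CDC25A), chr6:41941759-41942058 (CCND3 downstream), chr6:42048639-42048938 (CCND3 upstream), chr7:92833910-92834209 (CDK6 downstream) and chr7:92836524-92836823 (CDK6 upstream).
CDC25A: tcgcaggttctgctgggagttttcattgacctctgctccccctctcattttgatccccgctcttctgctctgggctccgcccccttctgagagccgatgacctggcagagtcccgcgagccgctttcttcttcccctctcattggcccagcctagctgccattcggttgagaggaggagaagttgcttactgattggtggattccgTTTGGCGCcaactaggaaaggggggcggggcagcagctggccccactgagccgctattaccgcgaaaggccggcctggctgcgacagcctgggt
CCND3 downstream start: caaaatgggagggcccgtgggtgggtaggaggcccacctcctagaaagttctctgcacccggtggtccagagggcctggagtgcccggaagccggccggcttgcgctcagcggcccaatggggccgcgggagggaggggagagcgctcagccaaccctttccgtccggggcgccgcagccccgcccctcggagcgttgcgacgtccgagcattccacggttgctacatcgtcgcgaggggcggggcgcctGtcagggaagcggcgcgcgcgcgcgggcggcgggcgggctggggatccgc
CCND3 upstream start: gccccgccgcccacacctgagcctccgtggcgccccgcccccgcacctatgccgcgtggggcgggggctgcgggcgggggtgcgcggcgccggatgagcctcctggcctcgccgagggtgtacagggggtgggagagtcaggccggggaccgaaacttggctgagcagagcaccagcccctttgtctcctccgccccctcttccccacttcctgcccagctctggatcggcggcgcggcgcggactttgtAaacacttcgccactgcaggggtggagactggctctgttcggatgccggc
CDK6 downstream start: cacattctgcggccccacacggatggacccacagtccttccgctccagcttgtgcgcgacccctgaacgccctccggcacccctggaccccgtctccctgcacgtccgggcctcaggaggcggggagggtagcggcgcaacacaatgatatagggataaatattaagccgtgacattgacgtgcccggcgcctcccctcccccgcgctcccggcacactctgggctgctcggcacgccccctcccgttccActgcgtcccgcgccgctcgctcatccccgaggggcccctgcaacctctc
CDK6 upstream start: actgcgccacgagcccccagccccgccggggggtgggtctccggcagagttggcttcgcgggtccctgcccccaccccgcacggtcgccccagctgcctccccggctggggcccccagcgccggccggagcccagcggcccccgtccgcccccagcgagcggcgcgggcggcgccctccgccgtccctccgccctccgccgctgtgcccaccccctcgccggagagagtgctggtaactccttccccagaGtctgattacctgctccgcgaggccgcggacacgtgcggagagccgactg
The GC content was 61% for CDC25A, 73.7% and 72.3% for the downstream and upstream CCND3 starts, and 68.7% and 78% for the CDK6 starts, against a median of 58.7% over all promoters of the set. The other CCND3 start had 60.3%, CDK4 had 66% and CCNE1 had 81%.

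Libraries held 50760266 to 59954677 estimated counts, and replicates of a group differed beyond sampling noise (chi-square per gene 5.1 to 15.2). Levels are given as CPM, estimated counts relative to a library size scaled with TMM, the trimmed mean of M values, or as TPM. TPM is also divided by transcript length and is the scale used to set genes beside each other. For a gene, both sum all its matched transcripts, with retained-intron and other non-coding forms included. Fold changes are treated over control from the quasi-likelihood test of edgeR, with Benjamini-Hochberg adjustment across the 22580 genes that were tested and 0.05 as the threshold. The labels name the cell type melanoma. Of 12 melanoma and neural crest markers, 9 had a mean of at least 1 CPM, among them SOX10, but the pigment cell genes MLANA, TYR and DCT were each under 1 CPM in both groups, and PMEL, of the same kind, rose from 0.556 ± 0.0505 to 2.05 ± 0.0987 CPM (adjusted p = 5.25e-08, edgeR). Of the 11 tested, 3 rose, 5 fell and 3 did not pass, against 69.4% of all genes tested that were called. Their median log2 fold change was -0.255. S100B fell from 38.6 ± 0.831 to 5.83 ± 1.12 CPM (adjusted p = 3.01e-06, edgeR). SOX10 fell from 417 ± 31.4 to 350 ± 6.77 CPM (adjusted p = 0.00167, edgeR). The summed level of these 12 markers was 1914 to 2014 CPM in control and 1303 to 1353 CPM in treated libraries. Immune markers summed to 0.254 to 0.622 CPM in control and 0.650 to 0.734 CPM in treated libraries, epithelial markers to 0.494 to 0.650 and 1.18 to 1.63 CPM, endothelial markers to 0.872 to 1.52 and 2.52 to 2.81 CPM, and fibroblast markers to 5.30 to 5.34 and 2.43 to 2.62 CPM. Their part in the results below was not tested.

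Of the 9 genes, 8 passed the filter on low counts, 2 rose (CCND1 and CDK2), 5 fell (CCND3, CCNE1, CCNE2, CDK6 and CDC25A) and CDK4 did not pass the test. Treatment moved much of the transcriptome: 69.4% of all genes tested were called, 34.9% higher and 34.5% lower, so 7 of 8 called is near that background. The median log2 fold change of the 8 was -0.22, and that of all genes tested was -0.02. The 3 treated libraries lay on one side of the 3 control libraries in CPM for all 8, against 73.3% of all genes tested. Because the RNA came from whole cultures, fewer cells in a cell cycle phase and less mRNA per cell cannot be told apart, and TMM gives changes relative to the other genes of a library.

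**Figure D1:**
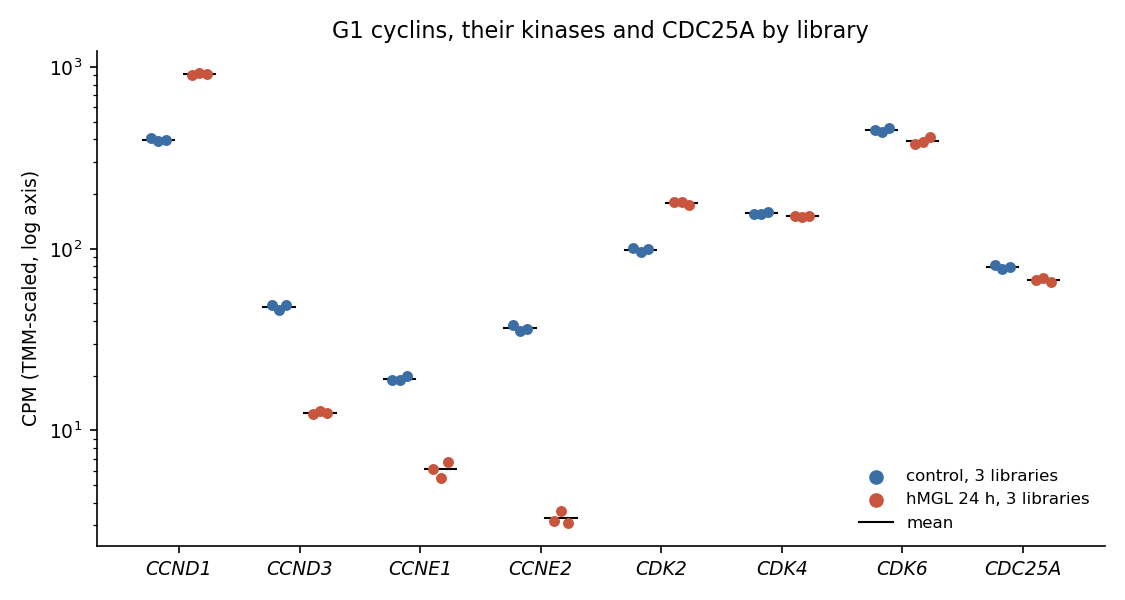
CPM of the 8 detected genes in each library, on a log axis, with 3 control libraries in blue, 3 treated in red and the mean as a black bar. CCNE2 shows the widest gap between the groups and CDK4 the narrowest; CCND2, at 0 in all 6 libraries, is not drawn.

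**Figure D2:**
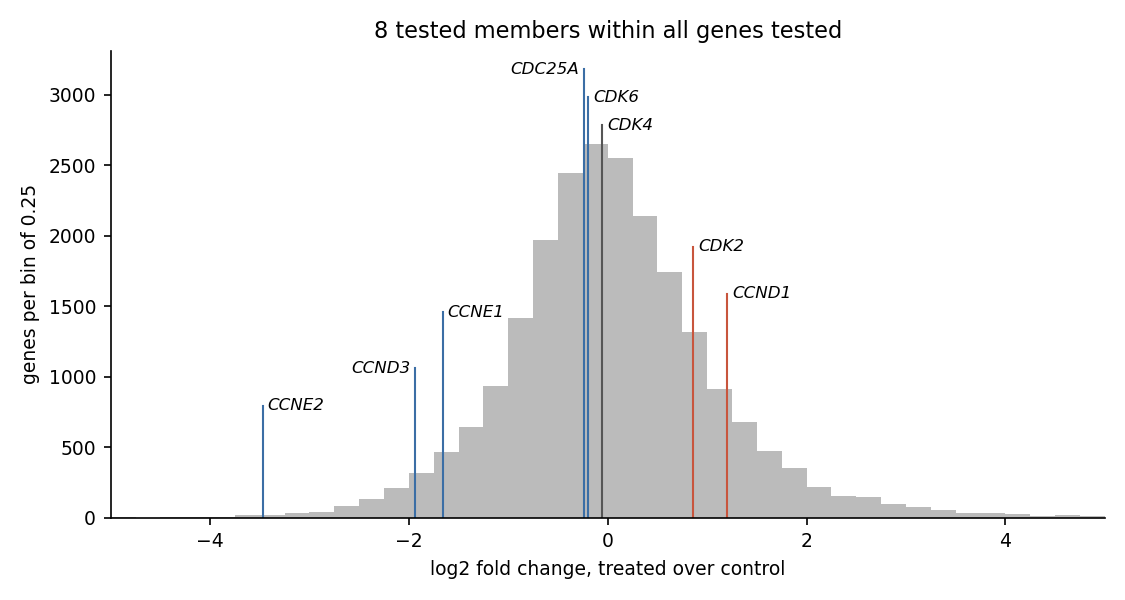
Number of tested genes in bins of log2 fold change (grey bars), with each of the 8 tested G1 genes as a vertical line, red where it rose, blue where it fell and dark grey where it was not called. The height of a line carries no value; CCNE2, CCND3 and CCNE1 lie in the lower tail, whereas CDC25A, CDK6 and CDK4 lie near the middle.

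The D cyclins differed from one another in level and direction. CCND1 (ENSG00000110092, chr11:69641087-69654474, plus strand), the D cyclin most directly tied to MAPK signalling, was at 405, 394 and 398 CPM in the control libraries and at 907, 925 and 918 CPM in the treated ones. Every treated library was above every control library, and within each group the libraries lay close together. The log2 fold change was 1.20 ± 0.03 (SE, adjusted p = 8.47e-17, edgeR), a 2.30-fold rise, and 88.4% of all genes tested had a lower log2 fold change. On the length-scaled measure CCND1 went from 75.1 ± 5.61 to 190.3 ± 13.7 TPM (SD, n = 3 per group).

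CCND3 (ENSG00000112576, chr6:41934933-42050357, minus strand), the D cyclin best known from lymphoid cells, moved the other way. Its level was 48.9, 45.9 and 48.7 CPM in control and 12.4, 12.7 and 12.4 CPM in treated libraries. The groups were far apart, with less than 1 CPM between the treated libraries. The log2 fold change was -1.94 ± 0.04 (SE, adjusted p = 7.23e-17, edgeR), 3.83-fold lower, and 2.87% of genes tested had a lower one.

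CCND2 (ENSG00000118971, chr12:4273772-4305350, plus strand), the third D cyclin, was not detected. All 4 of its transcripts had 0 estimated counts in all 6 libraries. A count of 0 allows up to 3 counts, which is 0.0545 to 0.0614 CPM depending on the library. Its exons share 989 bases with ENSG00000285901 on the same strand, which was at 2.25 ± 0.587 CPM in control and 1.65 ± 0.635 CPM in treated libraries (SD, n = 3), so reads from the shared bases could be assigned to either gene.

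The ratio of CCND1 to CCND3 in TPM, which does not depend on scaling between libraries, was 5.32 ± 0.222 in control and 44.5 ± 3.44 in treated libraries (SD, n = 3 per group). On the log2 scale it was 2.38, 2.48 and 2.38 in control libraries and 5.55, 5.34 and 5.53 in treated ones. The groups did not overlap, and the difference was 3.06 (p = 0.1, exact two-sided permutation test, adjusted over 3 ratios 0.15). With 3 libraries against 3 this test cannot go below 0.1, and a ratio of CCND1 to CCND2 could not be formed. CCND3 made up 15.8 ± 0.544% of all D cyclin TPM in control and 2.20 ± 0.174% in treated libraries. Summed over the family, D cyclin transcripts were at 92.0, 93.7 and 82.0 TPM in control and 209.8, 191.5 and 182.6 TPM in treated libraries. CCND1 was 97.8% of the treated sum.

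**Figure D3:**
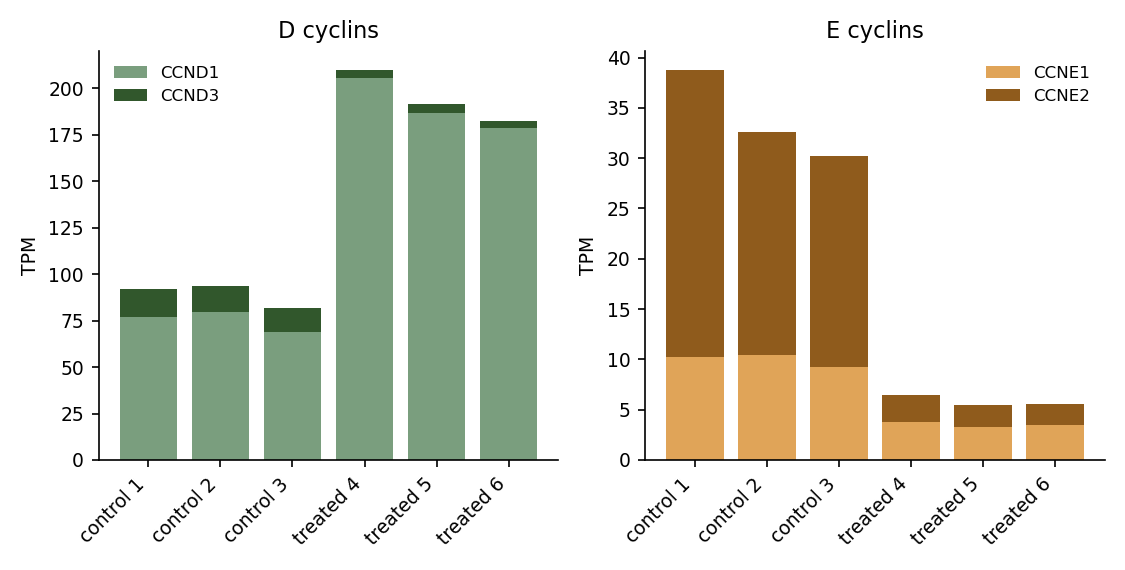
TPM of the D cyclins (left, CCND1 and CCND3 stacked) and of the E cyclins (right, CCNE1 and CCNE2 stacked) in each of the 6 libraries; the 2 panels have different vertical scales, both from 0. D cyclin bars are taller in all 3 treated libraries with a thinner CCND3 part, and E cyclin bars are shorter in all 3.

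CDK4 and CDK6, the interchangeable partners of the D cyclins, moved little. CDK4 (ENSG00000135446, chr12:57747727-57756013, minus strand) was at 155, 155 and 160.0 CPM in control and 152, 149 and 151 CPM in treated libraries. The groups did not overlap, but the gap between the nearest libraries was small, and the log2 fold change of -0.06 ± 0.03 did not pass the test (SE, adjusted p = 0.0996, edgeR). Its sign turned to 0.02 with library totals in place of TMM and to 0.04 on log2(TPM + 1), and it passed under a stricter filter at -0.05 (adjusted p = 0.0377, edgeR). In TPM the groups overlapped, at 86.1 to 96.3 in control and 89.8 to 101.7 in treated libraries.

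CDK6 (ENSG00000105810, chr7:92604921-92836594, minus strand) was at 449, 440.1 and 462 CPM in control and 379, 389 and 413 CPM in treated libraries. All 3 treated libraries were below the control ones. The log2 fold change was -0.19 ± 0.03 (SE, adjusted p = 4.7e-05, edgeR), 1.14-fold lower. The call ended in limma on log2(TPM + 1), at -0.04 (adjusted p = 0.713), and there the sign turned to 0.01 when RN7SL1, an RNA with 16.1% to 22.1% of the TPM of a library, was left out. In TPM, CDK6 was at 49.8 ± 3.11 in control and 48.4 ± 1.36 in treated libraries (SD, n = 3 per group), and the groups overlapped.

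The log2 ratio of CDK4 to CDK6 in TPM was 0.88 ± 0.07 in control and 0.96 ± 0.09 in treated libraries (SD), a difference of 0.08 (p = 0.3, exact two-sided permutation test, n = 3 per group, adjusted over 3 ratios 0.3). Summed CDK4 and CDK6 transcripts were at 132.8 to 146.3 TPM in control and 139 to 151 TPM in treated libraries, which overlapped. Set against these kinases, D cyclin TPM was 0.630 ± 0.0117 of the CDK4 and CDK6 sum in control and 1.36 ± 0.0422 of it in treated libraries. D cyclin TPM was thus below kinase TPM in all 3 control libraries and above it in all 3 treated ones.

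The E cyclins were both lower after treatment. CCNE1 (ENSG00000105173, chr19:29811898-29824308, plus strand), the E cyclin often amplified in tumours, was at 19.0, 18.9 and 20.0 CPM in control and 6.11, 5.48 and 6.73 CPM in treated libraries. The highest treated library was well below the lowest control. The log2 fold change was -1.66 ± 0.07 (SE, adjusted p = 1.02e-12, edgeR), 3.16-fold lower, and 4.7% of genes tested had a lower one.

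CCNE2 (ENSG00000175305, chr8:94879770-94896678, minus strand), its paralog, fell furthest of the 8 genes tested. It was at 38.0, 35.2 and 36.2 CPM in control and 3.16, 3.60 and 3.09 CPM in treated libraries. The treated libraries were all at a small part of the control level, with a log2 fold change of -3.47 ± 0.07 (SE, adjusted p = 1.11e-17, edgeR), 11.1-fold lower. A lower log2 fold change was found in 0.235% of genes tested.

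The log2 ratio of CCNE1 to CCNE2 in TPM was -1.48, -1.09 and -1.19 in control libraries and 0.53, 0.56 and 0.77 in treated ones. CCNE2 was thus the more abundant E cyclin in every control library and CCNE1 in every treated one. The difference was 1.87 (p = 0.1, exact two-sided permutation test, n = 3 per group, adjusted over 3 ratios 0.15), at the smallest p the design allows. CCNE2 made up 70.4 ± 2.84% of E cyclin TPM in control and 39.4 ± 2.19% in treated libraries. Summed E cyclin transcripts were at 38.7, 32.6 and 30.2 TPM in control and 6.44, 5.46 and 5.52 TPM in treated libraries.

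CDK2 (ENSG00000123374, chr12:55966769-55972784, plus strand), the kinase partner of the E cyclins and later of cyclin A, rose while its G1 cyclins fell. It was at 101, 96.5 and 99.1 CPM in control and 181, 181 and 175 CPM in treated libraries, with no overlap. The log2 fold change was 0.86 ± 0.03 (SE, adjusted p = 5.2e-14, edgeR), a 1.81-fold rise, and 81.9% of genes tested had a lower one. E cyclin TPM was 0.813 ± 0.0898 of CDK2 TPM in control and 0.0706 ± 0.00396 of it in treated libraries (SD, n = 3 per group). D cyclin TPM was 2.65 ± 0.255 times E cyclin TPM in control and 33.6 ± 1.34 times in treated libraries.

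CDC25A (ENSG00000164045, chr3:48157146-48188402, minus strand) removes inhibitory phosphates from CDK2 and is itself an E2F target in textbook accounts. It was at 81.0, 77.6 and 79.3 CPM in control and 67.5, 68.6 and 65.9 CPM in treated libraries. All treated libraries were lower, but by far less than the E cyclins, with a log2 fold change of -0.24 ± 0.03 (SE, adjusted p = 7.05e-06, edgeR), 1.18-fold lower. On log2(TPM + 1) the value was -0.14 and the call ended (limma, adjusted p = 0.247). CDC25A went from 17.4 ± 2.02 to 15.6 ± 1.25 TPM (SD, n = 3 per group), and the groups overlapped in TPM.

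In TPM the order in control libraries was CDK4, CCND1, CDK6, CDK2, CCNE2, CDC25A, CCND3, CCNE1 and CCND2, from 91.7 ± 5.16 TPM for CDK4 to 9.95 ± 0.657 TPM for CCNE1 and 0 for CCND2. No neighbours in that order overlapped over the 3 libraries. In treated libraries it was CCND1, CDK4, CDK2, CDK6, CDC25A, CCND3, CCNE1, CCNE2 and CCND2. There CDK4 (94.6 ± 6.28 TPM) and CDK2 (82.3 ± 7.58 TPM) overlapped, and no other neighbours did. CCNE2 went from 23.9 ± 4.01 TPM, above CDC25A, CCND3 and CCNE1, to 2.30 ± 0.309 TPM, the lowest of the detected members.

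Isoforms were compared with a second edgeR fit over 95285 transcripts, scaled on its own, so that transcript CPM are not on quite the same scale as gene CPM. Of the 85 transcripts of these genes, 8 had 0 counts throughout and 53 were tested. Of those, 10 rose, 11 fell and 32 did not pass, against 30.3% of all transcripts tested that were called. Reads shared between isoforms were divided by the authors' software, and the error of that division is not in the files.

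The main isoforms of CCND1 and CDK2 rose with their genes, and that of CDK4 did not pass the test. CCND1-201, the full-length coding transcript, held 95.8 ± 0.375% of CCND1 counts in control and 95.4 ± 0.147% in treated libraries (SD, n = 3) and rose by 1.22 on the log2 scale (adjusted p = 2.76e-06, edgeR). CDK2-201 held 74.5% and 74.8% of CDK2 counts and rose by 0.89 (adjusted p = 3.2e-05, edgeR), as did CDK2-203 and CDK2-205, by 0.94 and 0.92. CDK2-208, annotated as a target of nonsense-mediated decay, had a log2 fold change of 0.41 that did not pass (adjusted p = 0.116, edgeR). CDK4-201 held 73.4% and 73.2% of CDK4 counts, and none of the 14 CDK4 transcripts tested passed, CDK4-214 at -0.21 and CDK4-215 at -0.37 on the log2 scale included.

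Of the E cyclin isoforms, 4 were tested for CCNE1, of which 2 fell, and 5 for CCNE2, of which 4 fell; none rose. CCNE1-201 and CCNE1-206 held 54.2% and 32.5% of CCNE1 counts in control libraries, and their log2 fold changes were -1.75 (adjusted p = 0.000625, edgeR) and -1.56 (adjusted p = 0.000808, edgeR). CCNE1-203 and CCNE1-205 had log2 fold changes of -3.11 and -1.03 and did not pass. Without treated replicate 4, CCNE1-203 passed at -6.72 (adjusted p = 0.00753, edgeR). It had 23.4, 0 and 0.767 counts in treated replicates 4, 5 and 6, so that value rests on treated counts near 0. CCNE2-201, the main CCNE2 transcript, was at 26.3, 26.3 and 28.3 CPM in control and 1.93, 2.24 and 2.12 CPM in treated libraries, a log2 fold change of -3.68 ± 0.09 (SE, adjusted p = 6.66e-06, edgeR). CCNE2-202, a shorter coding form, changed by -2.27 (adjusted p = 0.00293, edgeR), and its share of CCNE2 counts was 5.14% to 7.88% in control and 10.6% to 20.9% in treated libraries. CCNE2-206, annotated as a target of nonsense-mediated decay, had a log2 fold change of -4.44 (adjusted p = 0.0271, edgeR); the call ended when control replicate 1, 2 or 3 or treated replicate 4 or 5 was left out, with adjusted p of 0.05 to 0.083 and values of -3.86 to -4.95. CCNE2-205 had -2.74 and did not pass.

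The CCND3 isoforms are described by start site. Transcript CCND3-203 starts near the downstream promoter printed above, at position 41941848 in GENCODE 29. It was at 37.9, 36.6 and 39.1 CPM in control and 9.09, 8.21 and 8.52 CPM in treated libraries, a log2 fold change of -2.14 ± 0.06 (SE, adjusted p = 1.15e-05, edgeR). Its share of CCND3 counts was 83.6 ± 1.17% in control and 71.4 ± 4.87% in treated libraries, with no overlap, but its use was not called (adjusted p = 1, edgeR diffSpliceDGE). CCND3-215 starts upstream, at position 42050357, with its start codon in exon 2. It was at 0.831, 0.904 and 0.697 CPM in control and 1.15, 1.35 and 1.28 CPM in treated libraries, so the groups did not overlap at this low level. Its log2 fold change of 0.64 did not pass (adjusted p = 0.0712, edgeR), while its share of CCND3 counts was 1.80 ± 0.280% in control and 10.5 ± 0.663% in treated libraries.

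The test of isoform use compares the change of a transcript with that of its gene, in natural-log rather than log2 units. CCND3-215 was 1.78 natural-log units above (adjusted p = 0.0269, edgeR diffSpliceDGE). It was the only 1 of 53 member transcripts called, against 2.79% of the 73934 transcripts in that test. The call ended when any 1 library was left out (adjusted p = 0.07 to 0.183) and without the filter on low counts (adjusted p = 0.165), though the value lay between 1.70 and 1.84 in all of these. CCND3-213, from the upstream promoter printed above, had a log2 fold change of -2.76 (adjusted p = 0.0309, edgeR), which ended without any 1 control replicate or without treated replicate 4 (adjusted p = 0.0519 to 0.0995, values -2.39 to -3.03).

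Summed by start site on the gene-level scale, the 4 transcripts at the downstream CCND3 promoter were at 41.0 ± 1.15 CPM in control and 9.53 ± 0.431 CPM in treated libraries (SD, n = 3 per group). The 15 at the upstream promoter were at 3.40 ± 1.04 and 0.643 ± 0.0970 CPM. A further 4, CCND3-215 among them, started within 300 bases of neither and were at 3.41 ± 0.210 and 2.33 ± 0.626 CPM. They do not share a start site: CCND3-215 starts upstream of both promoters, and CCND3-207, CCND3-210 and CCND3-218 start downstream of both, inside the gene. The share of the downstream start was 85.8 ± 1.40% in control and 76.3 ± 4.34% in treated libraries, and that of the last 4 was 7.14 ± 0.695% and 18.6 ± 4.74%. Both differences in share were without overlap between groups and were not tested.

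CDK6 had a pair of long transcripts of about equal share in control libraries, each from its own promoter printed above. CDK6-201, from the downstream start, was at 215, 212 and 218 CPM in control and 159, 139 and 174 CPM in treated libraries, a log2 fold change of -0.45 ± 0.08 (SE, adjusted p = 0.0106, edgeR). CDK6-202, from the upstream start, was at 197, 198 and 209 CPM in control and 196, 225 and 215 CPM in treated libraries, and its 0.08 did not pass (adjusted p = 0.382, edgeR). CDK6-201 was lower in every treated library, whereas the CDK6-202 groups overlapped. The share of CDK6-201 in CDK6 counts was 49.9% to 50.8% in control and 37.0% to 43.7% in treated libraries, but the test of isoform use called neither transcript (adjusted p = 1 for both, edgeR diffSpliceDGE). The transcripts are 11612 and 11663 bases long in the files, so they may share most of their sequence, and the length of CDK6-202 in GENCODE 29 is 1465 bases.

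CDC25A-201, with all 15 annotated exons, held 76.6 ± 5.83% of CDC25A counts in control and 71.4 ± 2.30% in treated libraries, and its log2 fold change was -0.31 (adjusted p = 0.0204, edgeR). The call ended with library totals in place of TMM, without control replicate 2, and without any 1 treated replicate (adjusted p = 0.0544 to 0.0766). CDC25A-202, with 14 exons, had 0.20 (adjusted p = 0.655, edgeR) and varied among control libraries, at 8.32, 10.7 and 17.8 CPM.

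Retained-intron forms made up a small share of each detected gene that has them. In CCND1, CDK2, CDK4 and CDK6 this share overlapped between groups, for CDK4 at 3.44% to 4.38% in control and 4.13% to 5.06% in treated libraries. The groups did not overlap in CCNE1, CCNE2 and CCND3. How many of all genes separate in this way was not computed, so the separation is not read as particular to these genes. Counts were low, at 0 to 14.8 over all libraries for CCNE1-204 and 3.72 to 8.69 in treated libraries for CCNE2-203. The retained-intron share of CCNE1 counts was 0 to 0.830% in control and 2.92% to 4.57% in treated libraries. That of CCNE2 counts was 1.24% to 1.98% and 2.47% to 5.17%, and that of CCND3 counts 0.749% to 1.25% and 1.61% to 1.88%. These shares were not tested as such, the 2 CCNE1 forms were too low to enter the transcript test, and none of the retained-intron forms of CCND3 and CCNE2 that did was called for isoform use. The levels of the tested CCNE2 and CCND3 forms fell while the shares were higher. For CCNE1 the level did not fall, with CCNE1-204 at 0.0677 ± 0.0648 CPM in control and 0.223 ± 0.0814 CPM in treated libraries. CCNE2-203 went from 0.515 ± 0.128 to 0.115 ± 0.0416 CPM (log2 fold change -2.07, adjusted p = 0.0141, edgeR). CCND3-212 went from 0.432 ± 0.104 to 0.187 ± 0.0125 CPM (-1.17, adjusted p = 0.0458, edgeR). In CPM 2 of the 4 retained-intron forms of CCND1, picked after their values were seen, rose with the gene: CCND1-202 from 5.55 ± 0.801 to 21.2 ± 1.81 CPM (adjusted p = 0.000229, edgeR) and CCND1-206 from 2.89 ± 0.495 to 8.01 ± 0.626 CPM (adjusted p = 0.00152, edgeR). CCND1-204 and CCND1-205 did not pass (adjusted p = 0.0524 and 0.171, edgeR).

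**Figure D4:**
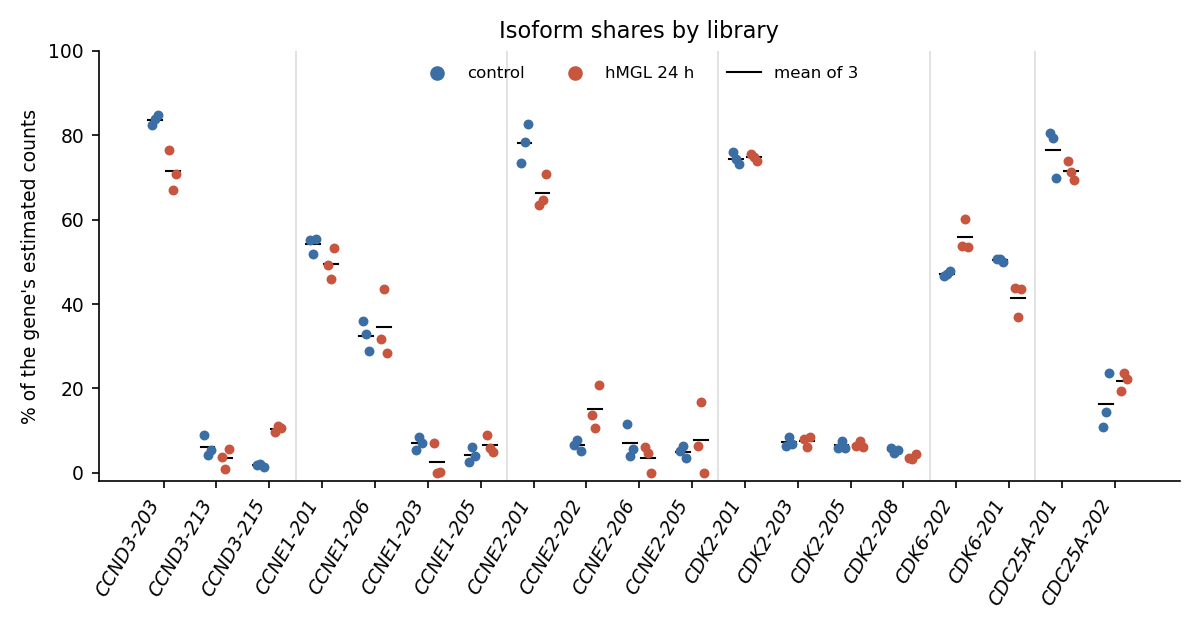
Share of the gene's estimated counts held by each isoform with at least 5% in either group, for CCND3, CCNE1, CCNE2, CDK2, CDK6 and CDC25A, with control libraries in blue, treated in red and the mean of 3 as a black bar. CCND3-203, CCNE2-201, CDK2-208 and CDK6-201 are lower in all 3 treated libraries than in any control library. CCND3-215, CCNE2-202 and CDK6-202 are higher, while the CDK2 main form shows no gap. Of the isoforms drawn, only CCND3-215 was called for isoform use.

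Some member exons overlap those of other genes, and whether counting used strand is not given in the sources used here. CCND1 shares 497 exon bases with LTO1 on the opposite strand, which was at 20.7 ± 0.625 CPM in control and 52.4 ± 1.37 CPM in treated libraries (SD, n = 3). CCNE2 shares 1629 with INTS8, at 74.8 ± 1.5 and 43.5 ± 1.3 CPM, and CDK4 shares 1369 with TSPAN31, at 21.0 ± 0.694 and 17.9 ± 0.292 CPM. CDK2 shares 565 with the antisense gene ENSG00000258554 and 89 with PMEL, and CDK6 shares 81 with CDK6-AS1, all of which were under 3 CPM in both groups. Without strand, reads from such shared bases cannot be told apart, and their part in the member levels was not tested.

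Other genes of the pathway were counted in lists, beside the 69.4% of all genes called. Among 10 E2F and DP factors, which act downstream of the D and E cyclin kinases, 3 rose, 6 fell and 1 did not pass, with a median log2 fold change of -0.61. E2F1, an activator, went from 62.5 ± 1.08 to 13.7 ± 0.732 CPM (log2 fold change -2.19, adjusted p = 1.88e-17, edgeR). Its binding partner TFDP1 changed by -1.61 (adjusted p = 8.94e-17, edgeR), and by -1.01 in limma on log2(TPM + 1) without RN7SL1. E2F7, an atypical repressor of E2F targets, rose from 43.6 ± 0.773 to 109.3 ± 4.46 CPM, and E2F4 rose by 0.23.

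Of the 10 CDK inhibitors and RB family genes, 9 were tested, 3 rose, 5 fell and CDKN1B (p27) did not pass, with a median of -0.28. CDKN2A, which encodes an inhibitor of CDK4 and CDK6, rose from 2.38 ± 0.216 to 7.78 ± 0.486 CPM (log2 fold change 1.70, adjusted p = 8.94e-11, edgeR). That level sums 14 matched transcripts, and whether those for the inhibitor rose was not examined. CDKN2C, of the same inhibitor family, moved the other way, from 59.6 ± 1.98 to 26.9 ± 0.745 CPM (-1.15, adjusted p = 2.59e-14, edgeR). CDKN1A (p21), an inhibitor of CDK2, rose by 0.70 on the log2 scale, and by 1.51 in limma on log2(TPM + 1), with 18.8 ± 1.72 TPM in control and 55.3 ± 4.29 TPM in treated libraries. RB1 fell by 1.73. CDKN1B was at 0.05 (adjusted p = 0.284, edgeR) and passed as higher with library totals in place of TMM (0.13, adjusted p = 0.00914, edgeR) and without treated replicate 5 (0.11, adjusted p = 0.0398, edgeR).

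Of the 15 S and M phase cyclins and CDK activators, 3 rose, 10 fell and 2 did not pass, with a median of -0.59. CCNA2, the cyclin that takes over CDK2 in S phase, fell by 1.47, and CDK1 fell by 0.69. CDC37, the cochaperone that helps CDK4 and CDK6 fold, went from 797 ± 28.7 to 473 ± 7.30 CPM (-0.75, adjusted p = 2.15e-13, edgeR). CCNA1, the germ-line cyclin A, rose from 2.38 ± 0.135 to 11.5 ± 0.0377 CPM, and MNAT1, a subunit of the CDK-activating kinase, rose by 0.66.

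Of 13 genes for turnover of the G1 cyclins and CDC25A, 5 rose, 4 fell and 4 did not pass, with a median of -0.05. FBXW7, a ubiquitin ligase adaptor for cyclin E, rose from 33.7 ± 1.07 to 44.5 ± 0.299 CPM (0.40, adjusted p = 2.64e-08, edgeR), and FBXO4, an adaptor linked to cyclin D1, rose by 0.64. A further pair was picked after the values were seen. SKP2 had the largest change of the 13, at -1.33 (adjusted p = 7.05e-05, edgeR), and AMBRA1 was at 0.67 (adjusted p = 0.00336, edgeR). CHEK1, the checkpoint kinase that marks CDC25A for destruction, fell by 0.62 and BTRC, the adaptor that then recognises it, by 0.23. In limma on log2(TPM + 1), BTRC no longer passed, at -0.13 (adjusted p = 0.303). Of 24 other cyclins and CDKs, 11 rose, 10 fell and 3 did not pass, with a median of -0.05. CCNT1 and CDK13, which act in transcription, rose, from 133.5 ± 2.49 to 344 ± 4.86 CPM and from 130.4 ± 2.09 to 320.0 ± 4.45 CPM, and CCNG1 and CDK5 fell by 1.04 and 1.23.

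**Figure D5:**
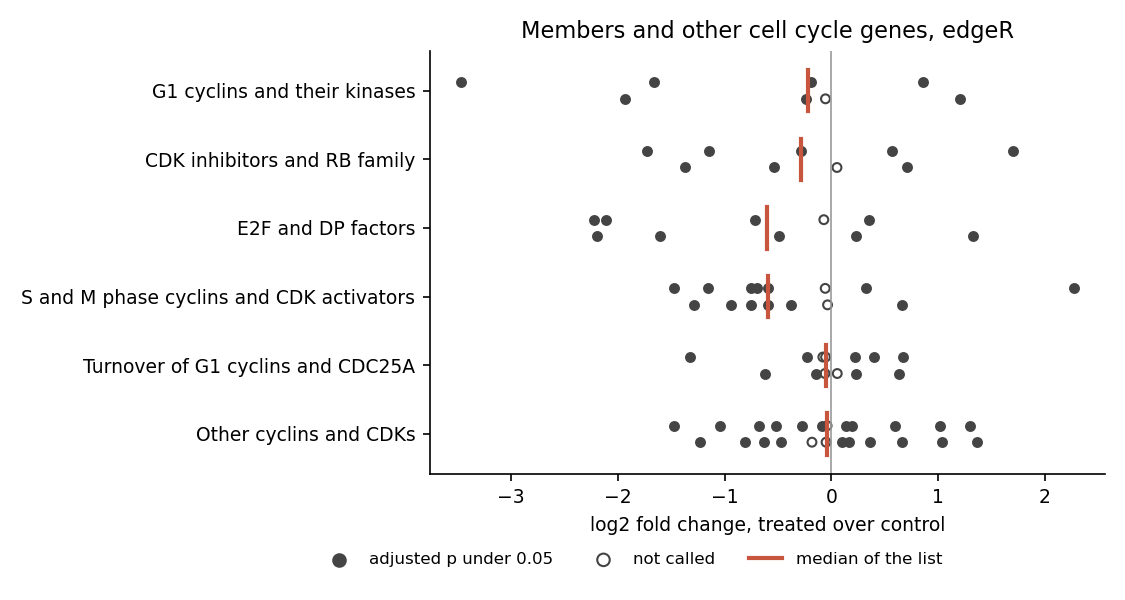
Log2 fold change of each tested gene in the G1 list and 5 other lists (points, filled where the adjusted p of edgeR is under 0.05 and open where it is not), with the median of each list as a red bar; points are staggered vertically for legibility. The E2F and DP list and the S and M phase list have the lowest medians, -0.61 and -0.59, and each list holds genes on both sides of 0.

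Genes with the most similar profile were found as the 3 at the smallest Euclidean distance in centred log2(CPM + 1) over the 6 libraries, among genes averaging 10 CPM or more. With 2 groups of libraries this mostly ranks genes by a like difference between groups. CCND1 was nearest to YTHDC1, PUS1 and PHAX (distance 0.0353 to 0.0412), CDK2 to ARPC5L, GOLPH3 and ING2 (0.0291 to 0.0357), and CCND3 to ANP32E, DIXDC1 and PALLD (0.0573 to 0.0622). CCNE1 was nearest to PLCD3, H3C12 and ACADM (0.137 to 0.145) and CCNE2 to SOX5, ASB9 and ITGB3 (0.128 to 0.174), at wider distances. CDK4 was nearest to ESCO1, CDC25B and ZZZ3 (0.0255 to 0.033), CDK6 to PRMT5, PSMD5 and RPS10-NUDT3 (0.0308 to 0.0433), and CDC25A to TMED4, UCHL5 and DHX16 (0.0349 to 0.0361). None of these 24 neighbours is another of the G1 genes.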

How the data were processed

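RNA of 3 control and 3 treated A375 cultures was sequenced; the labels call the cultures independent. Per the file headers, the deposited tables give estimated counts and TPM per transcript, with transcript length and effective length, neither scaled between libraries by the authors beyond TPM itself. Kallisto 0.45.0 and DESeq2 1.30.0 are listed, without roles, in the submitters' processing notes; the index and build are not given in the sources used here. Transcripts were matched by identifier to GENCODE 29 (203436 of 244939); the 41503 unmatched held 4.86% to 5.13% of counts and were left out of gene sums. Lengths in the files differed from GENCODE 29 for 10 of the 85 member transcripts and 25042 of all matched ones, so that the authors' index is another release and start positions are approximate. Effective length exceeded length for 25.6% to 27.1% of transcripts, which bears on TPM.

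Estimated counts were summed to genes, rounded, filtered with filterByExpr (minimum count 10, minimum total 15) and tested with edgeR 4.0.16 (TMM, robust quasi-likelihood, two-sided; R 4.3.3). Common biological variation between replicates was 0.074 for genes and 0.513 for transcripts, whose tests are therefore less precise. The same model was run per transcript, and diffSpliceDGE for isoform use. The models were run on simulated counts, drawn with a variation of 0.074 for genes and transcripts alike. Those counts held less spread than the real transcripts and no error from shared reads, so they cannot show how the transcript and isoform-use tests perform here. CPM used TMM-scaled library sizes, and errors are SD over 3 libraries unless SE is named. Limma 3.58.1 (TPM) and DESeq2 1.42.0 were among 18 alternatives. Promoters came from RefSeq, build GRCh38.p14. All 9 genes are named whatever their values, with isoforms of at least 5% of counts, up to 2 rising and 2 falling genes of each other list by adjusted p, 6 genes fixed by name (CDKN1A, CDKN1B, RB1, E2F1, CCNA2 and CDK1), and 3 similar genes per member. The genes and lists were chosen with earlier results of these data known. Floors of 3 counts cover counting error only.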

Additional observations from a re-analysis of the deposited data

How the results depend on the processing

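CCND1, CCND3, CCNE1, CCNE2 and CDK2 had the same direction and passed the threshold under every alternative run, with log2 fold changes of 1.19 to 1.39, -1.96 to -1.50, -1.71 to -1.27, -3.51 to -2.91 and 0.84 to 1.02. CDK4 was 0.0201 with library totals, 0.0436, 0.044 and 0.0979 in limma on log2(TPM + 1), log2(TPM + 0.1) and log2(TPM + 1) without RN7SL1, and -0.053 under the stricter filter (at least 5 CPM), where it passed. In the same 3 limma fits CDK6 was -0.0395, -0.0402 and 0.0142 and CDC25A -0.143, -0.151 and -0.0927, and none of these passed. Against a minimum change of 1.5-fold (edgeR glmTreat), CDK6 (-0.194) and CDC25A (-0.236) did not pass. Accordingly 3 members were lower in each of these 4 fits.

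In limma on log2(TPM + 1) and log2(TPM + 0.1), and with the fold minimum, 3 genes of the CDK inhibitor and RB list were lower. With the fold minimum, 1 E2F or DP factor, 0 turnover genes and 5 other cyclins and CDKs were higher, and 1 turnover gene and 5 other cyclins and CDKs were lower. In the 3 limma fits 2 turnover genes and 6 other cyclins and CDKs were lower, and without RN7SL1 8 turnover genes were higher. Leaving out each library in turn gave 6 to 9 member transcripts lower (6 without control replicate 2, 7 without treated replicate 5) and 0 called for isoform use each time, and 0 were called for use without the low-count filter. CDK4-201 was 0.0152 with library totals and -0.0841 (without control replicate 2) to 0.0015 (without treated replicate 5) over the left-out libraries, CDC25A-202 was -0.0256 without control replicate 1 and 0.56 without control replicate 3, the ends of its range, and CDKN1B was -0.108 with the length offset and -0.00338 and -0.00393 in limma on log2(TPM + 1) and log2(TPM + 0.1); none of these values passed. CDKN1B passed at 0.129 with library totals and 0.108 without treated replicate 5, giving 4 higher genes in the CDK inhibitor and RB list. CDKN1A was 0.409 with protein-coding transcripts only to 1.57 in limma without RN7SL1, and CCNA1 1.61 in limma on log2(TPM + 1) to 2.35; both passed throughout. The cause of these shifts was not tested. No paired analysis was possible because the groups share no replicate numbers. Depth limits CCND2, at 0 counts, and the isoforms near 1 CPM.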

Other observations

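Among the other cyclins and CDKs, those with roles in transcription or splicing were picked after their values were seen, and all 14 are given. CDK9, the kinase that releases paused RNA polymerase II, rose from 50.9 ± 3.52 to 103.2 ± 5.19 CPM (SD, n = 3 per group, log2 fold change 1.02, adjusted p = 5.19e-09, edgeR). Its cyclins CCNT1 and CCNT2 rose by 1.37 and 0.66 on the log2 scale. CDK12 and CDK13, which act in elongation, rose, by 0.36 for CDK12, while their cyclin CCNK was at -0.05 (adjusted p = 0.547, edgeR). CCNL1 and CCNL2 rose by 0.59 and 0.17, and their partners CDK11A and CDK11B by 0.20 and 0.10. CDK10 fell by 0.52. Cyclin C (CCNC), of the Mediator kinase module, fell by 0.81, with CDK19 at -0.63 (adjusted p = 4.8e-08, edgeR) and CDK8 at -0.04 (adjusted p = 0.372, edgeR).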
